A study of Homo sapiens with 4 samples.

Results

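The serum amyloid A (SAA) genes examined here were SAA1, SAA2 and SAA4, taken as the rows whose platform gene symbol is one of these names or a read-through transcript of them. Of these 3 genes, 1 had such a row. SAA1 was represented by 1 probe set, which is 1 of 18603 probe sets and 1 of 15870 named genes on the array. SAA2, SAA4 and the read-through SAA2-SAA4 had 0 probe sets annotated to them by symbol, Entrez identifier or RefSeq transcript, so they were not analysed here. The genes were chosen by the measured difference of SAA1 between shDROSHA and shNC, which was already known to be large. The SAA1 values are therefore given as a description, with no test.

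The 4 arrays held total RNA of MDA-MB-231, an established mesenchymal-like human breast carcinoma line. In 2 arrays the cells had received a hairpin construct labelled shDROSHA, against the nuclear ribonuclease DROSHA that releases microRNA precursors from primary transcripts. In the other 2 they were the control labelled shNC, which the series text describes as mock-transfected. The labels give no other treatment, and all cells were grown in the same serum-supplemented medium. The labels number the replicates as biological. Whether the hairpin was stable or transient, and whether 1 or several hairpins or clones were used, is not stated in the labels.

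SAA proteins are small apolipoproteins carried on high-density lipoprotein (HDL). SAA1 and SAA2 are the acute-phase forms, made mainly by hepatocytes when interleukin-1, interleukin-6 and tumour necrosis factor act through NF-kB, C/EBP factors and STAT3, and they are also made by other cells, some tumour cells among them. SAA4 is the constitutive form, and human SAA3P is a pseudogene. The mRNAs of SAA1 and SAA2 are nearly identical. The sequences of the array's probes were not used here, so it is not known how much SAA2 mRNA binds the SAA1 probe set, and its signal may stand for both genes.

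Values are signals on the log2 scale from RMA, the authors' background correction, normalization and probe set summary, so that 1 unit is a doubling. The arrays had medians of 7.21 and 7.21 in shDROSHA and 7.25 and 7.24 in shNC. DROSHA mRNA was at 8.71 and 8.74 in shDROSHA, against 9.66 and 9.76 in shNC, a 1.98-fold lower signal. The log2 difference was -0.99 (SE 0.0733, adjusted p = 3.89e-06 in the trended limma fit defined below). Of 5 markers of the line, means ranged from 7.95 to 11.85 in shDROSHA and from 7.16 to 12.07 in shNC, with vimentin (VIM) between 11.82 and 11.88 on all arrays.

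SAA1 had a signal of 8.17 and 8.24 in shDROSHA, against 5.83 and 6.24 in shNC. Both shDROSHA arrays lay above both shNC arrays. The means were 8.21 ± 0.0521 in shDROSHA and 6.03 ± 0.295 in shNC (log2 mean ± SD, n = 2 each), a log2 difference of 2.17 or 4.51-fold. In bulk RNA, more SAA1 mRNA per cell and more cells with SAA1 mRNA cannot be told apart.

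The 4 pairs of a shDROSHA and a shNC array differed by 1.93 to 2.42 on the log2 scale. The shDROSHA arrays were 0.07 apart, and the shNC arrays 0.42 apart. Each gap was set beside those of the 1000 probe sets closest to SAA1 in mean signal of the same group. There the median gap was 0.10 within shDROSHA and 0.16 within shNC. The SAA1 gap was wider than 37.4% of these in shDROSHA and wider than 92% of these in shNC. The SAA1 signal stood at the 66.9 percentile of all probe sets in shDROSHA and at the 27.9 percentile in shNC. Background compresses the fold changes of dim probe sets, and no detection calls were used, so how much of the control signal was background was not tested.

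Set beside the whole array, SAA1 ranked 1 among named genes by the size of its difference and 2 of 18603 among all probe sets by its rise. Only 14 probe sets (0.0753%) were at least 2-fold higher in shDROSHA, and 25 (0.134%) at least 2-fold lower. Groups that do not overlap were common, at 47.8% of all probe sets in either direction and 23.4% with shDROSHA higher. Because SAA1 was chosen for this contrast, nothing is read from these shares.

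**Figure D1:**
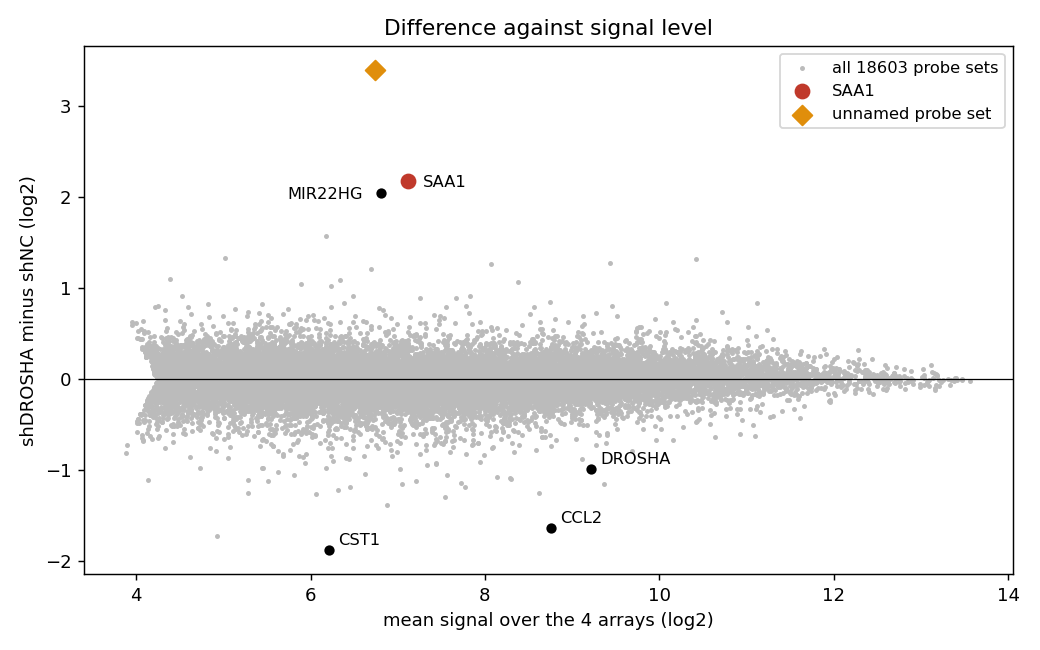
Difference between the group means (shDROSHA minus shNC, log2) against mean signal over the 4 arrays (log2), with 1 grey point for each of 18603 probe sets. SAA1 stands at 2.17, next to MIR22HG at 2.04 and below 1 unnamed probe set at 3.40; CST1, CCL2 and DROSHA are marked on the lower side at -1.88, -1.64 and -0.99.

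The 9 other named genes among the 10 with the largest differences were split between the directions. MIR22HG, from which miR-22 is cut, was 4.12-fold higher, FABP4, a fatty acid carrier, 2.98-fold, TMEM45A 2.52-fold and IL7R, the interleukin-7 receptor alpha chain, 2.49-fold. CST1, a secreted cysteine protease inhibitor, was 3.68-fold lower, DNAAF11 3.31-fold, the monocyte-attracting chemokine CCL2 3.12-fold, the adhesion receptor ADGRG1 2.61-fold and CMTM3 2.46-fold. CCL2 is, like SAA1, a textbook NF-kB-responsive gene, and they differed in opposite directions. Both are named here for the size of their difference, and a part of NF-kB in either was not tested. CCL2 was at 7.99 and 7.87 in shDROSHA, against 9.67 and 9.48 in shNC.

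The 1 probe set with a larger rise than SAA1 carries no gene symbol in the platform annotation and is unnamed here (TC1100013152.hg.1). Its signal was 8.45 and 8.41 in shDROSHA, against 4.87 and 5.20 in shNC, a 10.5-fold difference. As with SAA1, the shDROSHA arrays were close together and shNC replicate 2 was above shNC replicate 1. Which transcript it measures is not known here. In all 2717 probe sets were unnamed, and whether any of them measures SAA2, SAA4 or SAA2-SAA4 is not known either.

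The named genes most like SAA1 were found by the Euclidean distance between profiles over the 4 arrays, each centred on its own mean. A profile that did not vary would lie 2.19 log2 units from SAA1, and the median probe set lay at 2.20. MIR22HG was closest, at 0.42, with 7.99 and 7.67 in shDROSHA, against 5.79 and 5.79 in shNC. EFEMP1, an extracellular matrix glycoprotein, followed at 0.91, with 8.68 and 8.73 in shDROSHA and 7.31 and 7.56 in shNC, and so had the wider gap between the shNC arrays that SAA1 had.

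The other 6 lay between 0.92 and 1.20 from SAA1. They were IL7R, TMEM45A, FABP4, the cholesterol synthesis enzyme HMGCS1, the glycosyltransferase ALG5 and the prolactin receptor PRLR. Their differences were 2.03-fold to 2.98-fold, all below that of SAA1. The unnamed probe set lay at 1.23, since the distance counts the size of a difference as well as its shape. These genes were picked for their likeness to SAA1 on the same arrays, so they have no test.

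**Figure D2:**
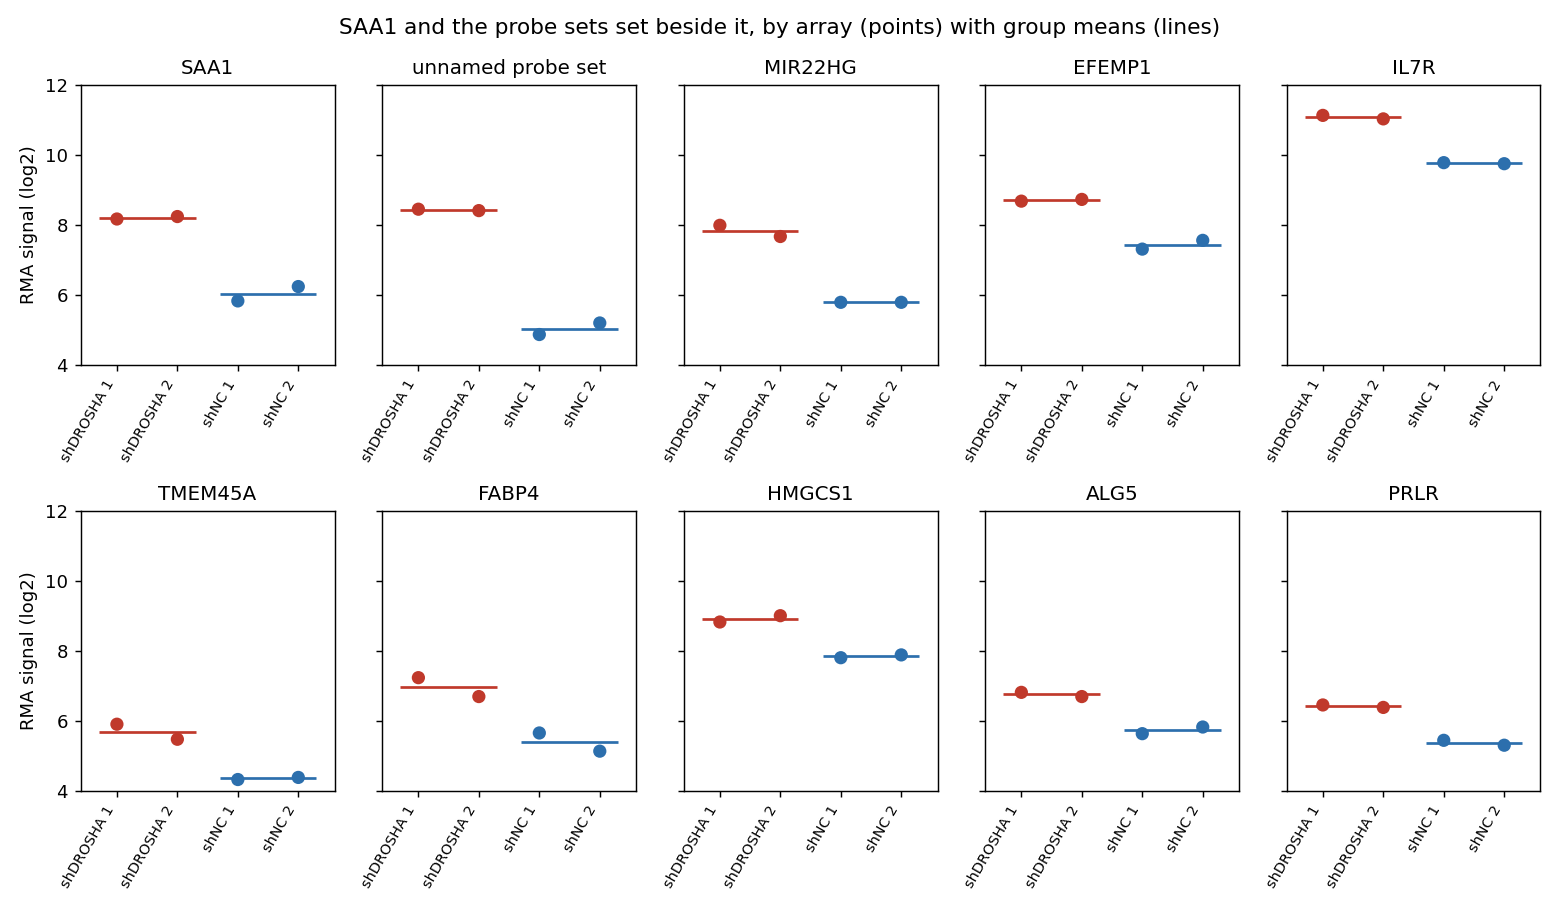
RMA signal (log2) of SAA1, the unnamed probe set with the larger rise and the 8 named genes with the most similar profile, in each of the 4 arrays (points; shDROSHA red, shNC blue), with lines at the group means. In every panel both shDROSHA arrays lie above both shNC arrays. The probe sets were picked for likeness to SAA1 or for the size of their rise, so this is no separate finding. The SAA1 arrays are 0.07 apart in shDROSHA and 0.42 apart in shNC.

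The genes around SAA1 in its pathway were examined next, in lists drawn up from textbook roles. The test was limma over all 18603 probe sets with a prior variance that follows signal level (the trended fit), at an adjusted p of 0.05, and rose and fell are used below only of genes past it. It called 1192 probe sets, or 6.41%, of which 581 (3.12%) rose and 611 (3.28%) fell, and the median difference of all probe sets was 0.00. Bright probe sets were called more often, from 0.833% in the dimmest of 5 equal bins to 15.6% in the brightest. The share called in a list thus depends on how bright its members are. No set test was run, and no share below is read as a result about its list. With 1 constant prior variance (the constant fit), limma called 1 probe set (0.00538%), the unnamed one above, and 2774 had an unadjusted p under 0.05. No list member below passed that fit, and the adjusted p of those named as risen or fallen was 0.172 to 0.34 in it. DROSHA did not pass the constant fit either (adjusted p = 0.0843).

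None of the acute-phase proteins tested passed. Of 24 listed, CRP, FGG, LBP, CP, CFB, LCN2, APCS, A2M and STEAP4 were not analysed here, and 15 were measured. Of these, 0 rose and 0 fell, with a median difference of 0.04 and a range of -0.31 to 0.47. With 6.41% of all probe sets called, few calls or none would be counted among so few genes, so the 0 is not a result about these proteins. At an unadjusted p under 0.05 limma had 5 of them in the trended fit and 4 in the constant fit. Over all 18603 probe sets those counts were 3599 and 2774, so such a p was common on these arrays. The fibrinogen chain FGB was 0.47 higher (4.51 and 4.53 in shDROSHA, 3.83 and 4.27 in shNC, adjusted p = 0.235). The protease inhibitor SERPINA3 was 0.41 higher (6.63 and 7.02 in shDROSHA, 6.62 and 6.19 in shNC, adjusted p = 0.209).

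SERPINA3 passed when shDROSHA replicate 1 was left out (adjusted p = 0.0112). The protease inhibitor SERPINA1 and the haem carrier HPX were 0.38 and 0.26 higher without passing, and the pattern-recognition protein PTX3 and ITIH4 were lower by log2 differences of -0.29 and -0.31 without passing. Their groups did not overlap, as at 47.8% of all probe sets. The orosomucoids ORM1 and ORM2, close paralogs, differed by 0.04 and -0.06, haptoglobin (HP) by 0.01 and complement C3 by 0.04. The median signal of the list was 5.46, below that of all probe sets at 7.22, in a range where few probe sets were called.

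Negative acute-phase proteins, which the liver makes less of in inflammation, gave 0 calls in 6 measured of 8 (0 at an unadjusted p under 0.05 in either limma fit). Their median difference was 0.01, with albumin (ALB) 0.19 and transthyretin (TTR) 0.16 higher without passing. Hepatocyte markers, measured as a check for that cell type, had means of 4.52 to 6.10 in shDROSHA and 4.05 to 5.95 in shNC, and 0 of 5 rose or fell. These 5 are also members of the acute-phase or negative acute-phase lists, and so are not a separate set of genes. Their summed signal was 26.20 and 26.93 in shDROSHA, against 25.10 and 25.66 in shNC. The shDROSHA sums were thus above the shNC sums, and their part in the SAA1 difference was not tested. FGB (0.47) and SERPINA1 (0.38) had the largest differences among these markers, without passing, and TF differed by -0.01. The lower quartile of all probe sets was 5.84 to 5.89 over the arrays, so these markers lay near or below it. Monocyte and macrophage markers (4 measured) summed to 28.87 and 29.04 in shDROSHA and 28.89 and 28.51 in shNC, with 0 called. Among 5 luminal epithelial and 4 fibroblast markers 0 were called as well. Beside 6.41% of all probe sets, counts of 0 among so few genes are not a result about these proteins or cell types. Of the 5 markers of the line itself, AXL and SPARC rose (differences 0.33 and 0.79) and CAV1 fell (-0.23). AXL and CAV1 are bright, and 15.6% of the brightest bin was called. SPARC, with the largest difference of these, was dimmer, with means of 7.95 in shDROSHA and 7.16 in shNC.

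Of 17 transcription factors that act on SAA promoters, 14 were measured, and 0 rose and 0 fell (0 at an unadjusted p under 0.05 in either limma fit), with a median of -0.02. Beside 6.41% of all probe sets, a count of 0 in 14 is not a result about these factors. STAT3, which carries interleukin-6 signals, came closest, at 8.78 and 8.86 in shDROSHA and 8.62 and 8.68 in shNC (difference 0.17, SE 0.0817, adjusted p = 0.283). The NF-kB subunits RELA and NFKB1 differed by -0.13 and 0.11, and CEBPB and CEBPD, the C/EBP factors of the acute phase, by -0.01 and -0.02. MAZ, which binds SAA promoters as SAF-1, differed by 0.06, and NFKBIZ, a nuclear NF-kB cofactor, by 0.01. These are mRNA levels and carry no information on the activity of the proteins.

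Among the cytokines that induce SAA and their signalling chains, 31 of 36 were measured, 2 rose, 3 fell and 26 stayed short of the threshold (16.1% called, against 6.41% of all probe sets), with a median of -0.04. Both that rose encode receptor chains. Other receptor chains of the list did not pass, among them IL1R1 (difference 0.20, adjusted p = 0.597) and IL6R (difference 0.12, adjusted p = 0.735). IL1RAP, the accessory chain of the interleukin-1 receptor, was at 7.34 and 7.11 in shDROSHA and 6.75 and 6.59 in shNC (difference 0.55, SE 0.138, adjusted p = 0.0288). IL6ST, the signalling chain gp130 of the interleukin-6 family, was at 9.75 and 9.84 in shDROSHA and 9.52 and 9.52 in shNC (difference 0.28, SE 0.0656, adjusted p = 0.0207).

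The 3 that fell were a cytokine and inhibitors of NF-kB signalling. TNFAIP3, an NF-kB-induced inhibitor of the pathway, was at 7.39 and 7.20 in shDROSHA and 7.67 and 7.95 in shNC (difference -0.52, adjusted p = 0.0249). NFKBIA, which holds NF-kB in the cytoplasm and is itself NF-kB-induced, was at 9.32 and 9.41 in shDROSHA and 9.66 and 9.70 in shNC (difference -0.31, adjusted p = 0.0136). IL11, an interleukin-6 family cytokine, was at 8.76 and 8.92 in shDROSHA and 9.26 and 9.11 in shNC (difference -0.34, adjusted p = 0.0251). For all 5 the groups did not overlap, which was so for 47.8% of all probe sets.

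Besides IL11, no cytokine of the list passed. IL6 was at 4.22 and 4.65 in shDROSHA and 4.64 and 4.31 in shNC, and IL1A at 4.45 and 4.52 in shDROSHA and 4.64 and 4.24 in shNC. Their arrays overlapped. IL1B was lower by a log2 difference of -0.24 (adjusted p = 0.554) and LIF by a log2 difference of -0.37 (adjusted p = 0.0638), neither passing, while LIF passed without shDROSHA replicate 1 (0.00595) and among probe sets above the median signal (0.0404). SOCS3, a STAT3-induced inhibitor, differed by 0.02. TNF was not analysed here. The 5 calls of this list fell to 1 without shNC replicate 1, where only TNFAIP3 stayed past the threshold, and to 1 without shNC replicate 2, where only IL11 did. IL6ST was also lost without shDROSHA replicate 2 (0.0774) and IL1RAP without shDROSHA replicate 1 (0.0813).

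Of 12 reported SAA receptors, 9 were measured, 1 rose, 1 fell and 7 did neither (22.2%, against 6.41% of all probe sets), with a median of -0.02. SCARB1, the scavenger receptor that binds HDL and takes up SAA, was at 8.44 and 8.27 in shDROSHA and 7.98 and 8.02 in shNC (difference 0.35, SE 0.0973, adjusted p = 0.0445). SCARB2, its lysosomal relative, was at 8.02 and 8.02 in shDROSHA and 8.45 and 8.57 in shNC (difference -0.49, SE 0.0926, adjusted p = 0.00566). Within each gene the groups did not overlap (47.8% of all probe sets), and these relatives moved in opposite directions.

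The inflammatory receptors gave no call. TLR4, the endotoxin receptor, was 0.25 higher (adjusted p = 0.257), and its partner LY96 was lower by a log2 difference of -0.41 (adjusted p = 0.305). FPR2, the formyl peptide receptor through which SAA attracts leukocytes, was at 5.36 and 5.08 in shDROSHA and 5.45 and 5.37 in shNC (adjusted p = 0.645), and TLR2 differed by 0.04. AGER, the receptor of glycated proteins, differed by -0.32 and passed only without shDROSHA replicate 2 (0.0485). SCARB1 was lost without shDROSHA replicate 1 (0.151), shNC replicate 1 (0.207) or shNC replicate 2 (0.122), and SCARB2 without shNC replicate 2 (0.0631).

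Of 21 HDL apolipoproteins and proteins that load or remodel HDL, 17 were measured, 1 rose, 2 fell and 14 did neither (17.6% called, against 6.41% of all probe sets). The median was 0.09. APOC1, an apolipoprotein of HDL with a closely similar pseudogene, was at 7.88 and 7.55 in shDROSHA and 7.12 and 7.20 in shNC (difference 0.55, SE 0.129, adjusted p = 0.0205). The transporters that hand cholesterol to HDL particles fell. ABCA1, which also lipidates SAA, was at 7.10 and 7.21 in shDROSHA and 7.76 and 7.61 in shNC (difference -0.53, adjusted p = 0.0147). ABCG1 was at 5.61 and 5.28 in shDROSHA and 5.97 and 6.34 in shNC (difference -0.71, adjusted p = 0.0368).

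APOA1, the main HDL protein, which SAA displaces in the acute phase, differed by -0.13 (SE 0.168, adjusted p = 0.763), and its arrays overlapped. APOE was 0.12 higher and APOC2 0.24 higher without passing. The 3 calls depended on single arrays. APOC1 was lost without shDROSHA replicate 1 (0.0828) or shNC replicate 1 (0.111), ABCA1 without shNC replicate 1 (0.165), and ABCG1 without shDROSHA replicate 2 (0.0927) or shNC replicate 2 (0.26).

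Of 9 proteases reported to cleave SAA, all were measured, 0 rose, 2 fell and 7 did neither (22.2% called, against 6.41% of all probe sets). Both that fell are bright, and 15.6% of the brightest bin was called. The median was -0.07. The lysosomal protease CTSB was at 8.95 and 8.97 in shDROSHA and 9.23 and 9.35 in shNC (difference -0.33, SE 0.0757, adjusted p = 0.0183). CTSL was at 10.17 and 10.11 in shDROSHA and 10.34 and 10.34 in shNC (difference -0.21, SE 0.0565, adjusted p = 0.0445). CTSD was at 9.05 and 9.03 in shDROSHA and 9.22 and 9.26 in shNC and did not pass (adjusted p = 0.126). The matrix metalloproteinases MMP1, MMP2, MMP3 and MMP9 differed by -0.18 to 0.06. CTSB was lost without shNC replicate 2 (0.164), and CTSL without shDROSHA replicate 2 (0.147), shNC replicate 1 (0.208) or shNC replicate 2 (0.162), or with each array centred on its median (0.1).

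**Figure D3:**
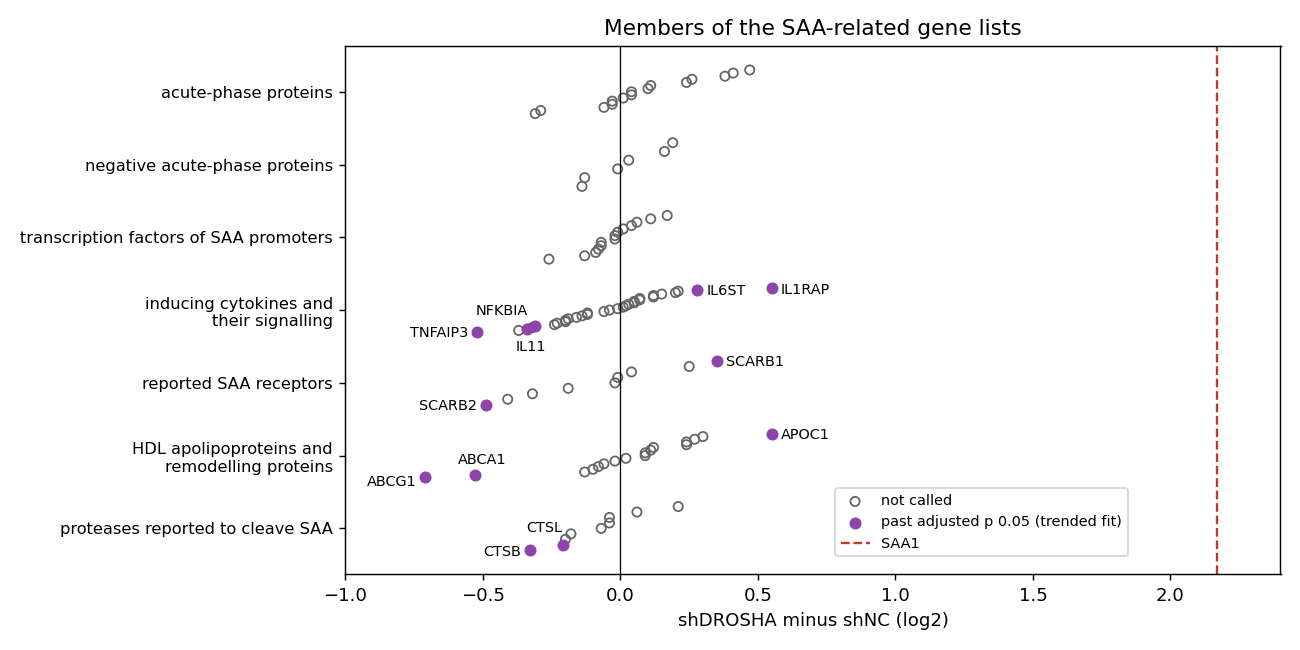
Difference between group means (shDROSHA minus shNC, log2, horizontal axis) of each measured member of 7 SAA-related gene lists, 1 point a gene, filled where adjusted p is under 0.05 in the trended fit. The dashed line is SAA1 at 2.17; the list members lie between -0.71 (ABCG1) and 0.55 (IL1RAP and APOC1).

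The SAA genes lie together on chromosome 11 in the RefSeq annotation of GRCh38.p14, with SAA4 and SAA2 on the opposite side of SAA1 from HPS5. Of the 10 protein-coding genes on each side of the cluster, 18 of 20 had a named probe set. Of these, 1 rose (5.56%, against 6.41% of all probe sets), 0 fell and 17 did neither. Their median was -0.01. The next gene beyond SAA1, HPS5, a subunit of a lysosome-related organelle complex, was at 8.68 and 8.52 in shDROSHA and 8.79 and 8.84 in shNC (difference -0.21, adjusted p = 0.194). The nearest on the SAA4 side, MRGPRX4, was at 5.80 and 5.79 in shDROSHA and 6.25 and 5.90 in shNC (adjusted p = 0.403).

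GTF2H1, a subunit of the general transcription factor TFIIH and the second gene beyond SAA1, rose. Its signal was 11.04 and 11.11 in shDROSHA and 10.69 and 10.78 in shNC (difference 0.34, SE 0.0529, adjusted p = 0.00167), and the call was kept without any 1 of the 4 arrays. LDHA, the lactate dehydrogenase A subunit next to it, differed by -0.02, TSG101 by 0.02 and SAAL1, named for its likeness to SAA, by -0.08. SERGEF was at 7.04 and 6.28 in shDROSHA and 7.08 and 7.09 in shNC, so that its difference of -0.42 came mostly from shDROSHA replicate 2. It did not pass with all arrays (adjusted p = 0.248) and did so without shDROSHA replicate 1 (0.000121).

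**Figure D4:**
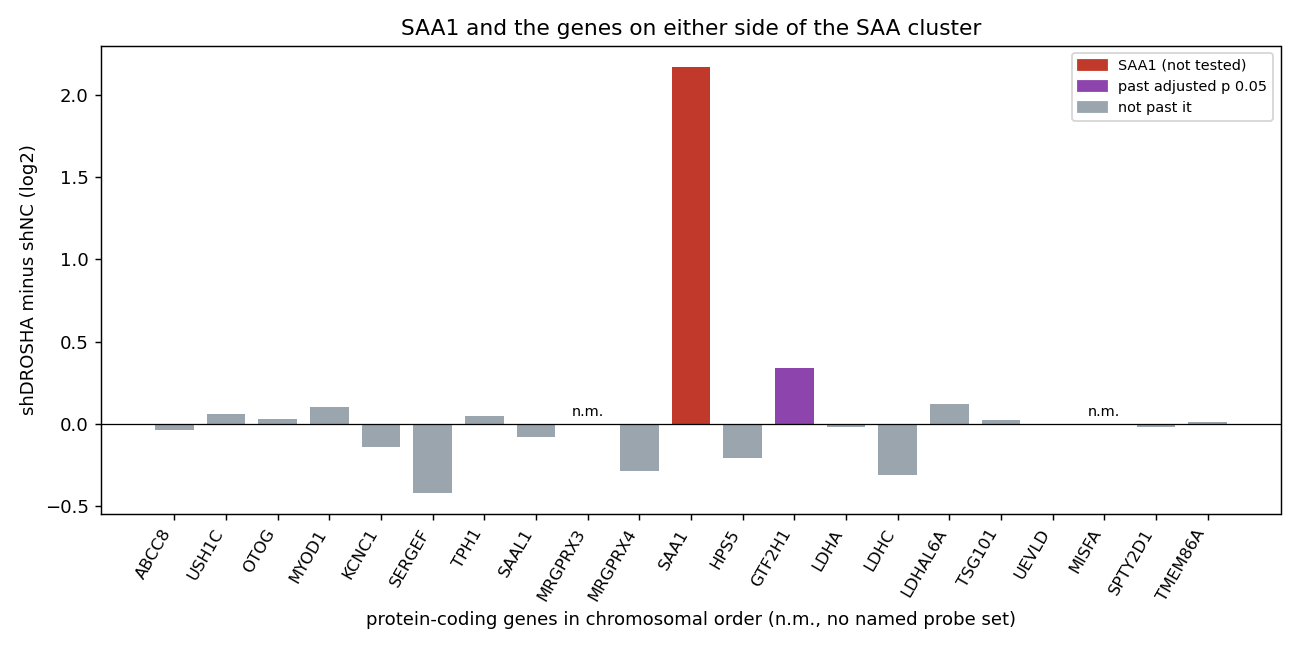
Difference between group means (shDROSHA minus shNC, log2) of SAA1 (red) and of the 10 nearest protein-coding genes on each side of the SAA cluster, in chromosomal order from the SAA4 side to the SAA1 side. SAA1 stands at 2.17; the measured neighbours lie between -0.42 (SERGEF) and 0.34 (GTF2H1, purple, the 1 neighbour past the threshold).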

How the data were processed

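The authors deposited log2 signals of each probe set, made with RMA per the submitters' processing notes. The labels do not name the software, its version or filters. RMA evens out the arrays' distributions, which would hide a shift common to most transcripts. The platform annotation named 15886 of 18603 probe sets, all matched to RefSeq by Entrez identifier; 2717 were unnamed here. Groups and replicate numbers came from the sample titles.

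Differences are group means, shDROSHA minus shNC. The test was limma 3.58.1 in R 4.3.3 (lmFit, eBayes with a trend) with p-values adjusted by Benjamini-Hochberg over every probe set. The trended prior had 11.9 degrees of freedom, added to 2 residual ones. The code was run on simulated arrays whose spread was set by signal level, as the trended fit assumes. That check cannot show whether the assumption holds for these arrays. An exact permutation test of 2 against 2 arrays cannot give a two-sided p below 0.333, and the number of arrays limits the precision. P-values rest on the spread between these samples, with the variance of each probe set drawn toward that of probe sets of like signal.

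Members, lists and the choice of the trended fit were made with earlier results of these data known. Genes were named by rule: DROSHA, SAA probe sets, up to 6 members a list with the smallest p and any called, 8 by likeness to SAA1 and 10 by size; other members named in the report (such as HP, C3, IL6, CEBPB and LDHA) were added for their known role after their values were seen. A gene with several probe sets counted by its brightest. Same-numbered arrays' deviations had a correlation of -0.022.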

Additional observations from a re-analysis of the deposited data

How the results depend on the processing

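The SAA1 difference of 2.17 was 2.19 with quantile normalization again, 2.21 with each array centred on its median and 1.96 to 2.38 without 1 array (1.96 without shNC replicate 1, 2.38 without shNC replicate 2). A replicate block left it at 2.17 and put the count over all probe sets at 1391, against 1192; the correlation of same-numbered arrays does not show that the numbers pair the samples, and the block changed no call of a named gene. That count was 1 with the constant fit, 535 to 1949 without 1 array (535 without shNC replicate 1, 748 without shNC replicate 2, 1949 without shDROSHA replicate 1), 1824 at adjusted p 0.10 and 245 at 1.5-fold or more. Centring each array on its median made 62.5% of calls higher, against 48.7%. The constant fit called 0 inducing cytokine and signalling genes (7 at an unadjusted p under 0.05 in limma), 0 receptors (2), 0 HDL proteins (4), 0 proteases (1) and 0 neighbours (2). At 1.5-fold or more these lists had 0, 0, 1, 0 and 0 calls. Without 1 array they had 1 to 6, 0 to 3, 1 to 2, 0 to 2 and 1 to 2, and the acute-phase proteins 0 to 1. With centred arrays the proteases had 1. The threshold and fold minimum act by construction, leaving out an array leaves fewer residual degrees of freedom, and the cause of the other differences was not tested.

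Directions turned for genes that did not pass. Without 1 array in turn, the difference was -0.29 to 0.03 for APOA1, -0.36 to 0.07 for SERPINA6, -0.07 to 0.13 for RBP4, -0.31 to 0.29 for TF (0.03 with centred arrays), -0.58 to 0.06 for CEBPA, -0.00085 to 0.43 for CTSS and -0.21 to 0.07 for MMP1.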
